A study of Mus musculus with 6 samples.

Results

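A set of 10 genes of cytokine receptor signalling and its feedback was followed across brain leukocytes: the suppressor genes Socs1, Socs2, Socs3 and Cish, the transcription factor gene Stat3, the kinase genes Pim1, Pim2 and Pim3, and the receptor genes Il4ra and Il6ra. They were taken by symbol and are 10 of 31053 genes listed in the files, of which 20875 had at least 1 unique molecular identifier (UMI, the tag that counts 1 captured transcript). Living leukocytes carrying CD45, the surface protein of blood-derived cells and microglia, were sorted from mouse brain and read as single cells in 6 libraries. Mice of the C57BL/6 strain were naive, or had the middle cerebral artery blocked by a filament for 60 min (middle cerebral artery occlusion, MCAO) and were sampled 1 h or 3 h after blood flow was restored. At each of these 3 times there was 1 library from Cd300a-fl/fl mice, called fl/fl here, and 1 from Cd300a-fl/fl Lyz2-cre mice, called Lyz2-cre. Both genotypes carry loxP-flanked Cd300a alleles, and Cre expressed from Lyz2, a gene of myeloid cells, is meant to delete Cd300a, an inhibitory receptor, in those cells. No library came from mice with Cre alone, and neither age nor sex of the animals is stated in the labels. Every library pooled 3 brains, so no combination of genotype and time was repeated. The series design names 0 h in place of naive; the sample titles were followed.

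Cytokines such as interleukin-6, interleukin-4 and colony-stimulating factors bind receptors that carry Janus kinases. These kinases phosphorylate STAT transcription factors, and STATs switch on the SOCS genes, whose proteins bind the receptor or the kinase and damp the same signal. SOCS3 acts on receptors of the interleukin-6 and G-CSF type, SOCS1 on Janus kinases in interferon signalling, and CISH and SOCS2 on receptors that work through STAT5. STAT3 carries the signal of interleukin-6 and interleukin-10 relatives. The PIM genes encode serine/threonine kinases that are active once made, so that their transcript level sets much of their activity, and they favour survival of blood cells. IL4RA is the shared receptor chain for interleukin-4 and interleukin-13, and IL6RA is the binding chain for interleukin-6. Microglia are the resident macrophages of the brain, and neutrophils and monocytes enter it from the blood after ischemia.

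Cells were placed in classes by marker genes, and class names end in -like for that reason. Of 51005 barcodes, 47077 cells were used, between 6719 and 9611 per library, and libraries held 35479437 to 48478866 UMIs. Between 12 and 30 cell barcodes were shared between the libraries of a pair, over 15 pairs. The 4 classes tested were microglia-like cells (4755 to 7340 per library, P2ry12 1455 to 4277 CPM), monocyte-like cells (135 to 813, Ccr2 704 to 1458 CPM), neutrophil-like cells (154 to 1077, S100a8 64125 to 135287 CPM) and T-cell-like cells (84 to 409, Cd3e 265 to 653 CPM). Levels are given as CPM, a gene's UMI count normalised to the summed UMI count of the class and library, and pairs of values are always in the order fl/fl, Lyz2-cre. Because the assay counts the ends of transcripts, levels of different genes were not compared with each other. Cd300a in neutrophil-like cells was 162, 232 and 139 CPM with fl/fl (naive, 1 h, 3 h) and 16.2, 12.8 and 16.1 CPM with Lyz2-cre. Microglia-like cells held 170.4, 212 and 206 CPM (fl/fl) and 137, 171 and 163 CPM (Lyz2-cre). The labels do not name the deleted exons, so tags at the transcript end may lie outside them and a remaining level does not measure the deletion. Lyz2 itself was far lower in the Lyz2-cre libraries (29.6, 83.5 and 26.1 CPM in monocyte-like cells, where fl/fl had 22737, 22991 and 19999 CPM). Outside cluster 14, which held cells of every library, monocyte-like cells of the 2 genotypes mostly fell in different clusters.

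The start regions of the genes were read from RefSeq (build GRCm38.p6) to show what lies upstream of members that were higher at 3 h in every tested class, Socs3, Stat3 and Il4ra. STAT proteins bind the palindrome TTCNNNGAA, and STAT6 also a form with 1 more base in the middle. Both read the same on either strand. Within the 250 bases before the start, a window was found for 9 of the 10 genes (10 windows, since Pim1 has 2). TTCNNNGAA occurred in the window of 1 member, Socs3, and in 7.02% of all 32851 windows, while the longer form occurred in 0 member windows and in 5.85% of all windows. The Socs3 match, in capitals, lies 154 to 146 bases before the start; the 30 bases around it are at chr11:117969501-117969530 on the minus strand, inside the longer annotated Socs3 model. The stretches shown for Stat3 (chr11:100939541-100939790, minus strand) and Il4ra (chr7:125552021-125552119, plus strand) end just before the annotated gene begins and hold neither palindrome; the rest of the Il4ra window lies inside its annotated gene.
Socs3: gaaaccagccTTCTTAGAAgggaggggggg
Stat3: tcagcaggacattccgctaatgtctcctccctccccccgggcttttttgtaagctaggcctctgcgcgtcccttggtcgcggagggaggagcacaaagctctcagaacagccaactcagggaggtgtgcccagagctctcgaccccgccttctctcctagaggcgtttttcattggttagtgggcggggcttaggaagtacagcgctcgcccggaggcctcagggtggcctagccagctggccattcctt
Il4ra: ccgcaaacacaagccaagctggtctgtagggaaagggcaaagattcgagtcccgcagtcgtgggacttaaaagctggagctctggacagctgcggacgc
A match is a string of letters and not a measured binding site, and the lack of one says only that these letters are not in this window. The windows were 71.6% G or C for Socs3, 60.8% for Stat3 and 59.6% for Il4ra, beside a median of 52.4% over all windows. In the annotation (GENCODE vM21) the genes occupy chr11:117966079-117970047 (Socs3), chr11:100885098-100939540 (Stat3) and chr7:125552120-125579474 (Il4ra).

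In microglia-like cells the suppressors Socs2 and Socs3, Stat3, all 3 PIM kinases and the interleukin-4 receptor Il4ra were higher 3 h after reperfusion than in naive mice. By edgeR's quasi-likelihood test, with genotype in the model and adjustment over all 12917 genes tested, 7 of the 10 members were called higher and 1 lower at 3 h, where 24.4% of all genes were called higher and 23% lower. The median log2 fold change was 1.23 over the members and -0.022 over all genes. At 1 h against naive, 5 members were called higher and 0 lower, beside 14.1% and 12.6% of all genes. Between 1 h and 3 h, 7 were called higher and 2 lower, beside 25% and 21.8% of all genes. Comparisons of 1 h and of 3 h with naive share the same 2 naive libraries, and each time is 2 libraries, 1 per genotype. Fits that leave out a library, here and below, keep a single library at its time and fewer residual degrees of freedom. Calls gained or lost in them show dependence on that library, and a smaller p-value there is not stronger evidence.

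Socs2, which in the other tested myeloid classes stayed under 4 CPM, changed most among the members. It was at 1.76 and 1.07 CPM (naive), 8.48 and 3.54 CPM (1 h) and 47.2 and 38.6 CPM (3 h), so that the 3 times did not overlap. The log2 fold change was 2.15 ± 0.26, adjusted p = 0.00207 at 1 h, and 5.05 ± 0.23, adjusted p = 1.48e-05 at 3 h (± SE here and below). The 1 h call missed the threshold without the fl/fl naive library (2.23, adjusted p = 0.0555). The share of microglia-like cells with a Socs2 UMI was 0.822% and 0.54% in naive mice and 11.5% and 8.27% at 3 h. With each cell thinned to 1000 UMIs these shares were 0.108% and 0.07%, and 3.66% and 2.91%. In neutrophil-like cells of the same 3 h libraries the unthinned share was 0.371% and 0% (0 of 1014 cells, Clopper-Pearson upper bound 0.363%), at median depths of 2918 and 2571 UMIs against 4290 and 3938 in microglia-like cells.

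Socs3 was already high in naive microglia-like cells, at 636 and 435 CPM (naive), 794 and 397 CPM (1 h) and 1279 and 953 CPM (3 h). Both 3 h libraries were above the other 4, whereas the 1 h libraries lay on either side of the naive ones. It rose by 3 h (1.16 ± 0.12, adjusted p = 0.000127), and the 1 h difference did not pass the test (0.22 ± 0.12, adjusted p = 0.208). With no genotype term the 3 h rise was 1.15, adjusted p = 0.109. Without the Lyz2-cre 1 h library the 1 h difference passed (0.43, adjusted p = 0.0381). Socs1, the suppressor tied to interferon signalling, moved the other way, at 24.9 and 18.8 CPM (naive), 16.6 and 20.1 CPM (1 h) and 12.2 and 12.8 CPM (3 h); it fell by 3 h (-0.71 ± 0.17, adjusted p = 0.0129), a call lost without the fl/fl naive library (-0.42, adjusted p = 0.0991) or the fl/fl 3 h library (-0.69, adjusted p = 0.0555). Its fall from 1 h to 3 h (-0.58 ± 0.17, adjusted p = 0.0297) was lost without Lyz2-cre 1 h, fl/fl 3 h or Lyz2-cre 3 h (adjusted p 0.0679 to 0.258). Cish stayed low in this class, at 1.55 and 2.12 CPM (naive), 4.67 and 1.1 CPM (1 h) and 10.4 and 10.3 CPM (3 h). Both of its 3 h values exceeded the others, but the difference missed the threshold (2.58 ± 0.66, adjusted p = 0.053). Of the alternatives 7 called it and 6 did not. DESeq2 gave 2.56, adjusted p = 0.00924. By edgeR it passed with no genotype term, the stricter cell filter, no doublet removal and in cells without other classes' markers (2.58 to 2.84, adjusted p 0.0278 to 0.0488). It passed without fl/fl 1 h (2.58, adjusted p = 9.52e-05) or Lyz2-cre 1 h (2.58, adjusted p = 2.81e-05), and without the latter also at 1 h (1.49, adjusted p = 0.00962).

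Stat3 was at 101 and 102 CPM (naive), 145 and 108 CPM (1 h) and 294 and 272 CPM (3 h). The 3 h libraries stood well apart from the rest, with a log2 fold change of 1.57 ± 0.099, adjusted p = 5.37e-06. At 1 h the fl/fl library was above and the Lyz2-cre library close to the naive pair (0.42 ± 0.097, adjusted p = 0.0123), and this call was lost without fl/fl naive (0.32, adjusted p = 0.126) or fl/fl 1 h (0.27, adjusted p = 0.191). Pim1, a kinase gene and known STAT target, rose at both times: levels were 32.1 and 17.4 CPM (naive), 43.9 and 25.4 CPM (1 h) and 115 and 68.2 CPM (3 h), and the change by 3 h was 1.99 ± 0.085, adjusted p = 4.38e-07. With no genotype term the latter was 1.98, adjusted p = 0.0538. Within each genotype Pim1 went up at each step, while the genotypes overlapped across times. Pim3 followed with 29.4 and 25.4 CPM (naive), 47.5 and 46.2 CPM (1 h) and 63.9 and 58.7 CPM (3 h), a change of 0.89 ± 0.090, adjusted p = 0.000207 at 1 h and 1.25 ± 0.090, adjusted p = 1.16e-05 at 3 h. Pim3 was higher from 1 h to 3 h too, but not without fl/fl 1 h (0.25, adjusted p = 0.162). Pim2 was low, at 4.34 and 4.82 CPM (naive), 4.99 and 4.41 CPM (1 h) and 7.3 and 8.82 CPM (3 h). It was called higher at 3 h against naive (0.91 ± 0.16, adjusted p = 0.00173) and not at 1 h, and its call from 1 h to 3 h was lost without Lyz2-cre 1 h (0.59, adjusted p = 0.0794).

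The receptor genes parted. Il4ra was at 95.5 and 88.4 CPM (naive), 123 and 93.9 CPM (1 h) and 220.5 and 179.96 CPM (3 h), and it rose by 3 h (1.20 ± 0.086, adjusted p = 1.05e-05) with both 3 h libraries above the other 4. At 1 h the call was small (0.34 ± 0.085, adjusted p = 0.018) and was lost without fl/fl naive or either 1 h library, with adjusted p between 0.0946 and 0.191. Il6ra was at 417 and 411 CPM (naive), 444 and 448 CPM (1 h) and 333 and 384 CPM (3 h); against naive it was not called at 3 h (-0.12 ± 0.082, adjusted p = 0.247), and from 1 h to 3 h it fell (-0.34 ± 0.083, adjusted p = 0.00761). At 1 h against naive it was called higher without either 3 h library (0.22, adjusted p = 0.0332 without fl/fl 3 h and 0.22, adjusted p = 0.0334 without Lyz2-cre 3 h). The later fall missed the threshold without the Lyz2-cre 1 h library (-0.35, adjusted p = 0.0503).

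**Figure D1:**
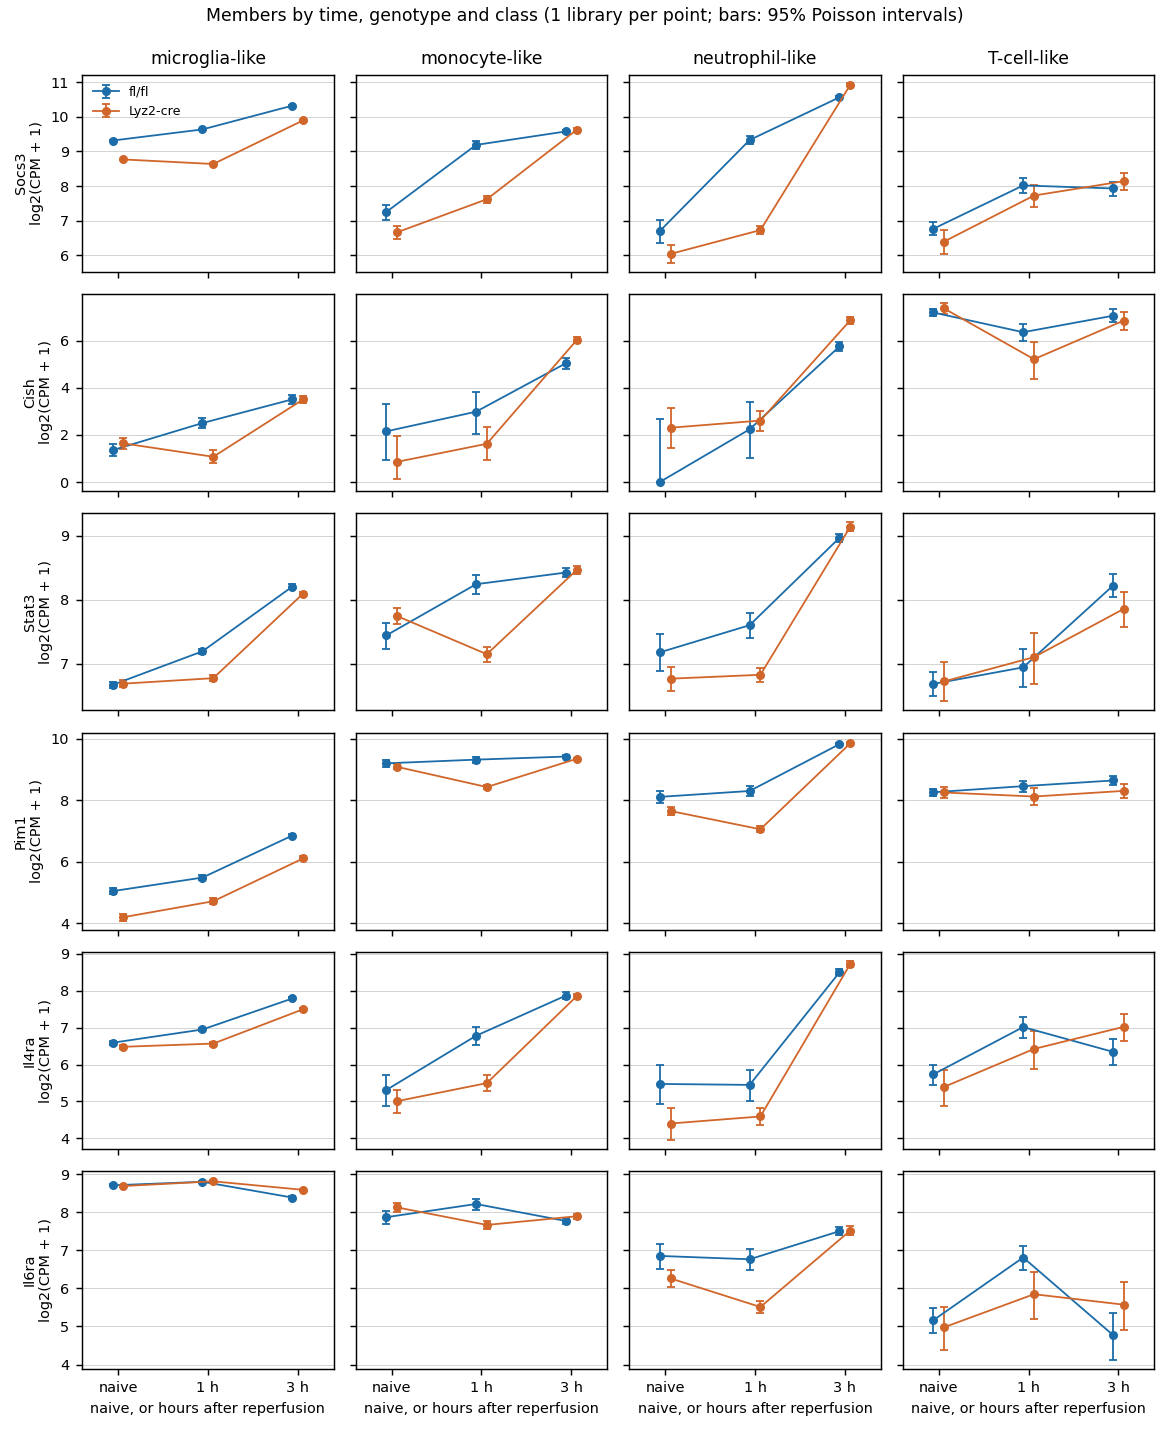
Level of Socs3, Cish, Stat3, Pim1, Il4ra and Il6ra in 4 classes (columns), as log2(CPM + 1) against time, 1 point per library, blue for fl/fl and orange for Lyz2-cre, with 95% Poisson intervals that cover counting error only. Socs3 at 3 h reached 1512 and 1941 CPM in neutrophil-like cells, and the 2 genotypes lay far apart at 1 h there, at 642 and 105 CPM.

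The microglia-like cells of the 3 times were held by different clusters: 3 and 4 in naive mice, 0, 2 and 5 at 1 h, and 1, 2, 13, 16 and 17 at 3 h. Cluster 16, led by Gdf15 and holding Il1a, Gpr84, Ccl12 and Ccl3 among its top 10 genes, held 1521 and 2031 cells at 3 h, 323 and 39 cells at 1 h, and 4 and 7 cells in naive mice. Since the clusters were made from these same genes' cells, their levels are a description. Socs3 in cluster 16 was at 5048 and 3897 CPM at 1 h, and then 2066 and 1644 CPM at 3 h, against 52.3 and 104 CPM in cluster 1 at 3 h. So within the 3 h libraries Socs3 levels were far apart between these clusters, and in cluster 16 they were higher at 1 h. Socs2 in cluster 16 was at 85.3 and 94.1 CPM at 3 h and at 1.56 and 2.4 CPM in cluster 1. Il4ra and Stat3 followed the same pattern, at 382 and 343 CPM and at 454 and 518 CPM in cluster 16, beside 69.7 and 51.8 CPM and 89.9 and 89.6 CPM in cluster 1. Il6ra was lower where the others were higher: 255 and 301 CPM in cluster 16 and 450.3 and 411 CPM in cluster 1. Cluster 17, led by the heat-shock genes Hspb1, Hspa1a and Hspa1b, lay between, with Socs3 at 1052 and 1081 CPM. Levels of defining microglial genes also moved with time: P2ry12 in the class was lowest in the 3 h libraries, and its part in these results was not tested. Cells with 3 or more Socs3 UMIs made up 40.4% and 30.9% in naive mice, 29.7% and 20.2% at 1 h, and 46% and 36.8% at 3 h, so both genotypes were lowest at 1 h. The variance of the count was 5.57 and 4.79 times its mean in naive mice, 14.1 and 6.59 times at 1 h, and 12.3 and 10.1 times at 3 h. Neither measure was brought to equal depth. Median depths were 4919 and 5205 UMIs in naive mice, 4231 and 3905 at 1 h, and 4290 and 3938 at 3 h.

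**Figure D2:**
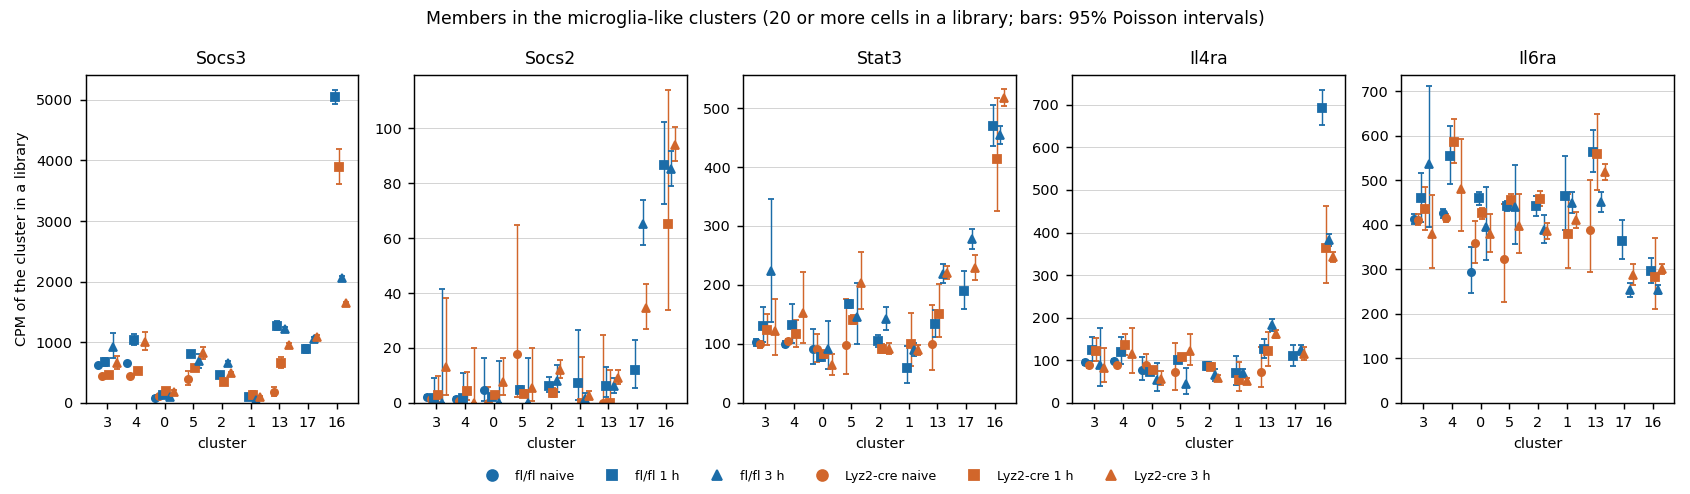
CPM of Socs3, Socs2, Stat3, Il4ra and Il6ra in each microglia-like cluster (x axis), 1 point per library with at least 20 cells of the cluster, coloured by genotype and shaped by time, with 95% Poisson intervals. Cluster 16 holds the highest values of Socs3, Socs2, Stat3 and Il4ra, with 5048 CPM of Socs3 in the fl/fl 1 h library.

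In neutrophil-like cells Socs3, Cish, Stat3, Pim1, Il4ra and Il6ra were all higher at 3 h than in naive mice. Of the 10 members, 8 passed the filter on low counts (Socs2 and Pim2 did not), and 6 were called higher and 0 lower at 3 h against naive, beside 17% and 10.5% of all 8361 genes tested. The median log2 fold change over the 8 was 2.33, and over all genes -0.054. From 1 h to 3 h again 6 were called higher and 0 lower, beside 17.9% and 14.4% of all genes. At 1 h against naive edgeR called 0 members in either direction, with 1 at an unadjusted p under 0.05 and 1 called by DESeq2, beside 0.299% of genes called higher and 0% lower.

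Socs3 was at 103 and 64.9 CPM (naive), 642 and 105 CPM (1 h) and 1512 and 1941 CPM (3 h). Both 3 h libraries were far above the others, and the fl/fl 1 h library lay apart from its Lyz2-cre counterpart. The rise by 3 h was 4.77 ± 0.61, adjusted p = 0.00116. At 1 h the difference missed the threshold (1.92 ± 0.57, adjusted p = 0.279), with the 2 genotypes far apart, and DESeq2 gave 1.90, adjusted p = 0.00698. By edgeR the change was 2.91 without Lyz2-cre 1 h, 1.73 without fl/fl 3 h and 1.73 without Lyz2-cre 3 h. Cish, the STAT5-induced suppressor, went from almost no transcripts to many: it was at 0 and 3.93 CPM (naive), 3.71 and 5.09 CPM (1 h) and 52.8 and 115 CPM (3 h), or 0 and 8 UMIs in the naive and 191 and 336 in the 3 h libraries. The fitted change was 5.31 ± 0.45, adjusted p = 9.42e-05. Shares of cells with a Cish UMI were 12.6% and 23.1% at 3 h (4.45% and 9.31% after thinning to 1000 UMIs), beside 0.806% and 1.37% of B-cell-like cells, at median depths of 2918 and 2571 UMIs and 3290 and 3029 UMIs. In T-cell-like cells the 3 h shares were 36.1% and 27.4% (9.66% and 9.47% thinned). Monocyte-like cells had 18.3% and 27.1% (2.85% and 5.32% thinned). Socs1 was not called (1.22 ± 0.49, adjusted p = 0.0903), with 18.8 and 10.3 CPM (naive), 27.8 and 6.64 CPM (1 h) and 22.1 and 29.8 CPM (3 h); without fl/fl 1 h, Lyz2-cre 1 h or fl/fl 3 h it passed, at 1.28, adjusted p = 0.00708, 1.24, adjusted p = 0.0154 and 1.98, adjusted p = 2.83e-05.

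Stat3 rose from 144 and 108 CPM in naive mice to 499 and 563 CPM at 3 h, with 193 and 112 CPM at 1 h; the change by 3 h was 2.39 ± 0.26, adjusted p = 0.000216. Pim1 was at 275 and 200.1 CPM (naive), 315 and 132 CPM (1 h) and 906 and 923 CPM (3 h). Its 3 h values were separate from the rest, and the rise was 2.26 ± 0.28, adjusted p = 0.000483. Pim3 stayed under 9 CPM and was not called (0.25 ± 0.55, adjusted p = 0.766). Il4ra changed most after Cish and Socs3, at 43.5 and 20.2 CPM (naive), 42.7 and 23.2 CPM (1 h) and 361 and 422 CPM (3 h). Naive and 1 h libraries overlapped, the 3 h libraries stood apart, and the change was 4.05 ± 0.32, adjusted p = 7.30e-05. Il6ra was at 115 and 75.7 CPM (naive), 108 and 44.6 CPM (1 h) and 180.3 and 182 CPM (3 h), called higher at 3 h (1.26 ± 0.27, adjusted p = 0.00713), but not without the fl/fl naive (1.25, adjusted p = 0.125) or the Lyz2-cre naive library (1.36, adjusted p = 0.13) or with scaling by library totals only (0.99, adjusted p = 0.0524).

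The neutrophil-like class also changed in make-up. Cluster 7, with the secondary granule genes Ngp, Camp and Ltf among its top genes, held 56 and 164 of the naive cells, 49 and 485 at 1 h and 34 and 32 at 3 h. Cluster 19, led by Retnlg and holding Cxcr2 and Hdc among its top 10 genes, held 0 and 1 naive cells and 981 and 923 at 3 h, and cluster 8 held most of the rest. Outside cluster 7 the 3 h change was 3.56, adjusted p = 7.46e-05 for Socs3, 1.86, adjusted p = 3.84e-05 for Stat3, 1.00, adjusted p = 0.00398 for Pim1, 6.47, adjusted p = 3.18e-06 for Cish and 3.37, adjusted p = 9.97e-07 for Il4ra. Il6ra was no longer called there (0.41, adjusted p = 0.273), and Socs3 was called at 1 h (1.78, adjusted p = 0.0227). Within cluster 8, Socs3 was at 214 and 190.4 CPM in naive mice, 898 and 352 CPM at 1 h, and then 925 and 797 CPM at 3 h. Pim1 in that cluster did not follow it, at 594 and 657 CPM in naive mice and 570.3 and 478 CPM at 3 h. In cluster 7 Pim1 was between 39.9 and 123 CPM in all 6 libraries, and in cluster 19 it was 1016 and 1038 CPM at 3 h. Markers of other cells moved with time as well. Summed levels of 9 monocyte markers in the class were 4179 and 6699 CPM in naive mice, 4397 and 8055 CPM at 1 h, and then 1623 and 1812 CPM at 3 h. The 9 microglial markers summed to 2372 and 669 CPM, 2554 and 1399 CPM, and 287 and 490.4 CPM. Chil3, which is also among the STAT6 target genes described further on, made up most of the monocyte sum, at 3115 and 5578 CPM in naive mice, 3831 and 7209 CPM at 1 h, and then 983 and 1238 CPM at 3 h. The monocyte markers Vcan and Fn1 were at 0 in both naive libraries. In neutrophil-like cells with no UMI of P2ry12, Tmem119, Ly6c2, Ccr2, Cd3e or Trac (48 to 744 per library), Socs3 (3.19, adjusted p = 0.000114), Stat3 (1.69, adjusted p = 0.000997) and Il4ra (3.21, adjusted p = 9.62e-05) were still called at 3 h. Cish was too (9.71, adjusted p = 0.000396). Pim1 (0.44, adjusted p = 0.0974) and Il6ra (0.15, adjusted p = 0.739) were not.

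**Figure D3:**
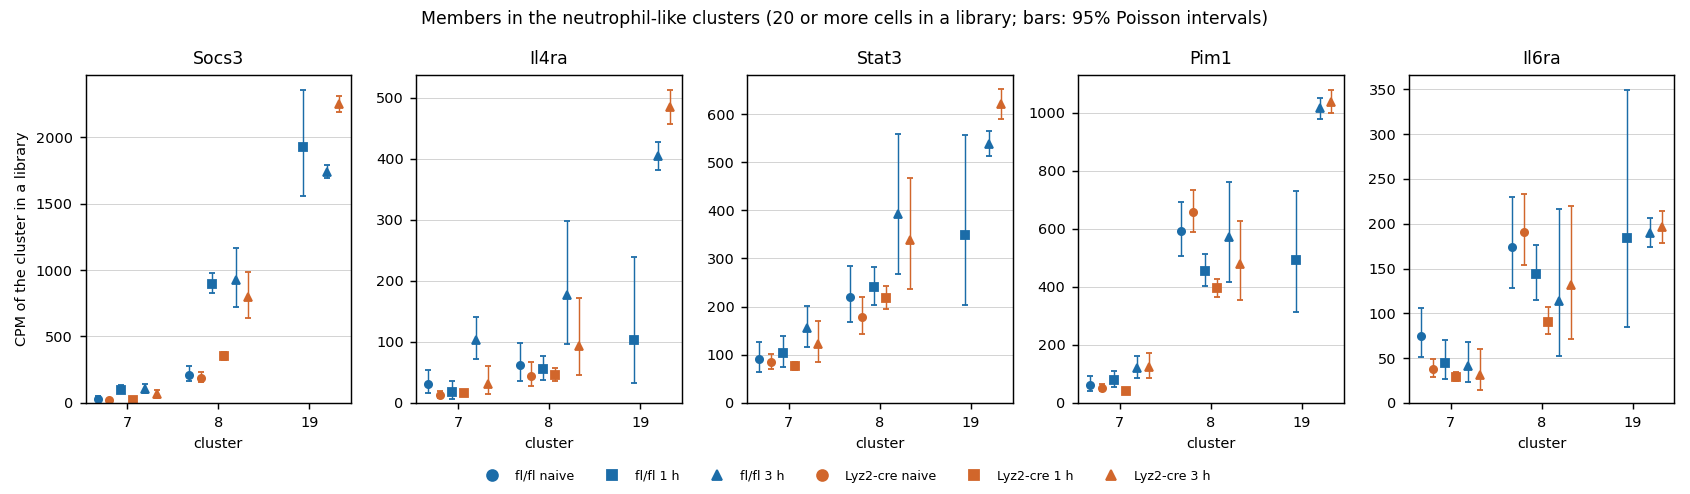
CPM of Socs3, Il4ra, Stat3, Pim1 and Il6ra in neutrophil-like clusters 7, 8 and 19 (x axis), 1 point per library with at least 20 cells of the cluster, coloured by genotype and shaped by time, with 95% Poisson intervals. Cluster 19 at 3 h holds the highest Il4ra, 404 and 484 CPM, and cluster 7 the lowest Pim1.

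Monocyte-like cells showed the same suppressors, Socs3 and Cish, together with Il4ra and Stat3 at 3 h. Of 9 members tested (Socs2 did not pass the filter), 4 were called higher and 0 lower at 3 h against naive, beside 9.77% and 11.2% of all 9943 genes. The median log2 fold change was 0.45 over the 9 and -0.038 over all genes. From 1 h to 3 h, 4 were called higher and 0 lower, beside 9.31% and 9.92%. At 1 h against naive edgeR called 0 members, with 2 at an unadjusted p under 0.05 and 1 called by DESeq2; 0.141% of genes were called higher and 0.101% lower.

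Socs3 was at 151 and 100.4 CPM (naive), 582 and 196 CPM (1 h) and 763 and 789 CPM (3 h). The 3 h libraries were above all others, and at 1 h the fl/fl library was close to them while the Lyz2-cre library was not. The change was 2.91 ± 0.35, adjusted p = 0.00165 by 3 h and 1.55 ± 0.35, adjusted p = 0.16 at 1 h, where DESeq2 gave 1.57, adjusted p = 0.00019. Without fl/fl 1 h, Lyz2-cre 1 h, fl/fl 3 h or Lyz2-cre 3 h, edgeR called it at 1 h as well, with log2 fold changes of 0.84 to 2.18 and adjusted p of 0.000141 to 0.0226. Cish rose from 4 and 2 UMIs in naive mice to 157 and 450 UMIs at 3 h. Its level was 3.44 and 0.81 CPM (naive), 6.91 and 2.08 CPM (1 h) and 31.9 and 63.9 CPM (3 h), with a log2 fold change of 5.06 ± 0.68, adjusted p = 0.00216. Il4ra was at 38.6 and 31.2 CPM (naive), 109 and 44.2 CPM (1 h) and 233 and 230.01 CPM (3 h), with both 3 h values above the rest and a change of 2.96 ± 0.30, adjusted p = 0.00036; without Lyz2-cre 1 h it was also called at 1 h (1.67, adjusted p = 0.000259). Stat3 was at 173 and 213 CPM (naive), 302 and 141 CPM (1 h) and 342 and 352 CPM (3 h); the fl/fl 1 h library reached well towards the 3 h values. Its rise by 3 h was 1.04 ± 0.30, adjusted p = 0.0403, a call lost without the fl/fl naive (0.71, adjusted p = 0.28), the Lyz2-cre naive (1.49, adjusted p = 0.0668) or the Lyz2-cre 3 h library (0.80, adjusted p = 0.265), and also with library totals only, no genotype term or the stricter cell filter (adjusted p 0.0542 to 0.0867). Without Lyz2-cre 1 h the 1 h difference passed (0.77, adjusted p = 0.0187), and without fl/fl 1 h the step from 1 h to 3 h did (1.54, adjusted p = 7.85e-07).

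The PIM kinases and Il6ra were not called against naive in monocyte-like cells. Pim1 was abundant throughout, at 587 and 543 CPM (naive), 638 and 344 CPM (1 h) and 684 and 651 CPM (3 h), with the Lyz2-cre 1 h library the lowest. It was called higher from 1 h to 3 h (0.67 ± 0.20, adjusted p = 0.0438), and the call was lost without the Lyz2-cre 1 h library (0.31, adjusted p = 0.198) and without any of the naive or 3 h libraries of either genotype (adjusted p 0.0631 to 0.463). Against naive it was called higher at 3 h without fl/fl 1 h (0.46, adjusted p = 0.0026) or Lyz2-cre 1 h (0.48, adjusted p = 0.00241), and lower at 1 h without fl/fl 1 h (-0.61, adjusted p = 0.0166). The Socs3 call from 1 h to 3 h (1.36 ± 0.34, adjusted p = 0.0292) was lost without Lyz2-cre 3 h (0.79, adjusted p = 0.173), outside cluster 14 (1.52, adjusted p = 0.0841), in cells without other classes' markers (0.96, adjusted p = 0.0685), with no filter on low counts (1.41, adjusted p = 0.174) and with no genotype term (1.19, adjusted p = 0.2). The Pim1 call over these times was lost under 5 settings that kept all libraries: DESeq2, library totals only, no genotype term, cells without other markers, and cells outside cluster 14 (adjusted p 0.057 to 0.18). Il6ra was at 233 and 279 CPM (naive), 296 and 202 CPM (1 h) and 217 and 237 CPM (3 h), and no time comparison called it. Pim3 (at most 29.6 CPM), Pim2 (0.767 to 5.26 CPM) and Socs1 (7.29 to 24.9 CPM) passed no comparison either. Cluster 11 held 86, 257 and 620 cells of the Lyz2-cre libraries (naive, 1 h, 3 h), and cluster 15 held 41, 79 and 411 cells of the fl/fl libraries. Socs3 was at 42.3, 158 and 864 CPM in cluster 11 and 170.2, 738 and 803 CPM in cluster 15. In cluster 14, led by Ace, Ear2 and Treml4, genes of patrolling monocytes, it was 190.3 and 160.4 CPM in naive mice, 519 and 291 CPM at 1 h, and then 370.3 and 352 CPM at 3 h. Cluster 14 held 63 of 135 and 168 of 277 cells of the class in naive mice. It held 92 of 188 and 176 of 445 at 1 h, and 74 of 491 and 133 of 813 at 3 h. Cells outside cluster 14 gave 3.44, adjusted p = 0.0119 for Socs3 and 1.64, adjusted p = 0.00489 for Stat3 at 3 h. Il4ra and Cish also kept their 3 h calls there. The 9 microglial markers in the class summed to 1569 and 1147 CPM in naive mice, 1482 and 1484 CPM at 1 h, and then 419.8 and 374 CPM at 3 h, and the 8 neutrophil markers to 175 and 601 CPM, 143 and 1170.4 CPM, and 614 and 593 CPM. In monocyte-like cells without UMIs of the other tested classes' defining markers (83 to 329 per library), the 3 h change was 2.82, adjusted p = 0.000201 for Socs3, 3.23, adjusted p = 2.91e-06 for Il4ra and 0.92, adjusted p = 0.0146 for Stat3.

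In T-cell-like cells Socs3 and Il4ra were higher at 1 h and 3 h than in naive mice and Stat3 was higher at 3 h, while Cish was lower at 1 h. All 10 members were tested among 7465 genes. At 3 h against naive 3 were called higher and 0 lower, beside 5.18% and 3.26% of all genes, with a median log2 fold change of 0.23 over the members and 0.0036 over all genes. At 1 h 3 were called higher and 1 lower, beside 3.66% and 1.45%, and from 1 h to 3 h 2 were called higher and 1 lower, beside 1.77% and 2.13%.

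Socs3 was at 108 and 83.4 CPM (naive), 258 and 211 CPM (1 h) and 243 and 282 CPM (3 h). Every library after reperfusion was above both naive ones, and the change was 1.43 ± 0.19, adjusted p = 0.000229 at 1 h and 1.56 ± 0.18, adjusted p = 4.23e-05 at 3 h. Il4ra showed the same separation, at 52.3 and 41.1 CPM (naive), 128 and 84.8 CPM (1 h) and 80.3 and 129 CPM (3 h), with 1.35 ± 0.28, adjusted p = 0.0139 at 1 h and 1.20 ± 0.28, adjusted p = 0.0166 at 3 h. The 1 h call for Il4ra was lost without the fl/fl 1 h library (0.81, adjusted p = 0.237), and the 3 h call without Lyz2-cre 3 h (0.67, adjusted p = 0.169), without Lyz2-cre naive (1.03, adjusted p = 0.0589) by DESeq2 (1.29, adjusted p = 0.0588) and with the stricter cell filter (1.02, adjusted p = 0.0585). Stat3 was at 102 and 105 CPM (naive), 122 and 136 CPM (1 h) and 297 and 231 CPM (3 h), and it rose by 3 h (1.5 ± 0.17, adjusted p = 2.51e-05) with the 3 h libraries apart from the rest.

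Cish was higher in T-cell-like than in the myeloid classes of naive mice, at 145 and 163 CPM (naive), 80.8 and 36 CPM (1 h) and 132 and 114 CPM (3 h). It fell at 1 h (-1.14 ± 0.24, adjusted p = 0.0113), with both 1 h libraries under the other 4, and rose again by 3 h (0.96 ± 0.26, adjusted p = 0.0493). Il6ra went the opposite way, at 34.9 and 30.5 CPM (naive), 111 and 56.6 CPM (1 h) and 26.4 and 46.6 CPM (3 h), called higher at 1 h (1.57 ± 0.31, adjusted p = 0.00808) and then lower (-1.39 ± 0.35, adjusted p = 0.0408). These changes went with the make-up of the class. A cluster with Lef1 and Tcf7, genes of naive T cells, among its top 10, here the Lef1 cluster, held 14 and 5 cells in naive mice, 93 and 23 at 1 h and 20 and 41 at 3 h. In it Il6ra was 185 and 183 CPM at 1 h and Cish 9.85 and 0 CPM, whereas cluster 6.3, with 136 and 49 naive cells and led by Cd8b1, had Il6ra at 11.4 and 35.5 CPM and Cish at 153 and 185 CPM. Outside the Lef1 cluster the 1 h change of Il6ra turned (-0.42, adjusted p = 0.725), and Cish was not called at 1 h (-0.45, adjusted p = 0.676). There Stat3 (1.48, adjusted p = 2.81e-07), Socs3 (0.88, adjusted p = 0.00193) and Il4ra (1.04, adjusted p = 0.00548) were still called at 3 h. Other clusters of the class turned over too. Clusters 6.3, 6.7 and 6.9 held 136 and 49, 86 and 23, and 66 and 27 cells in naive mice, and 3 and 1, 1 and 2, and 4 and 2 cells at 3 h. Cluster 6.4, led by Ctla2a, held 0 cells in both naive libraries and 49 and 25 at 3 h, and the part of these shifts in the 3 h calls was not tested. With the stricter cell filter Il6ra (0.65, adjusted p = 0.588) and Cish (-0.59, adjusted p = 0.381) were not called at 1 h, and by DESeq2 Il6ra was not (1.52, adjusted p = 0.0753). Single libraries also decided these calls: without fl/fl 1 h the Il6ra change was 0.76, adjusted p = 0.44, without fl/fl naive 1.53, adjusted p = 0.138, and the Cish change was -0.75, adjusted p = 0.0615 without Lyz2-cre 1 h and -0.90, adjusted p = 0.0766 without Lyz2-cre naive. From 1 h to 3 h, Cish missed the threshold without Lyz2-cre 1 h, fl/fl 3 h or Lyz2-cre 3 h (adjusted p 0.111 to 0.28), Il6ra without fl/fl 1 h (-0.60, adjusted p = 0.556) or fl/fl 3 h (-0.51, adjusted p = 0.666), and Stat3 (1.04 ± 0.18, adjusted p = 0.00369) without fl/fl 3 h (0.84, adjusted p = 0.0774). The 8 markers of conventional dendritic cells summed to 34.9 and 31.7 CPM in naive T-cell-like cells, 349.7 and 134 CPM at 1 h, and then 62.3 and 159 CPM at 3 h, with Flt3, Clec9a and Clec10a at 0 in all 6 libraries. The list includes Ccr7, and the sum is not split by gene here. Over the 6 libraries the sum had the same order as the cell counts of the Lef1 cluster given above. The part of these markers in the results was not tested.

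Socs1, Socs2, Pim1, Pim2 and Pim3 passed no time comparison in T-cell-like cells. Socs1 was at 193 and 195 CPM (naive), 238 and 105 CPM (1 h) and 170.1 and 155 CPM (3 h), and Socs2 at 73.9 and 63.4 CPM (naive), 49 and 41.1 CPM (1 h) and 71.9 and 84.7 CPM (3 h); neither gene separated the 3 times. Pim1 was at 306 and 304 CPM (naive), 351 and 278 CPM (1 h) and 399 and 315 CPM (3 h). The Lef1 cluster held 0 UMIs of Socs2 in both 1 h libraries, while cluster 6.7 had 134 and 206 CPM in naive mice.

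**Figure D4:**
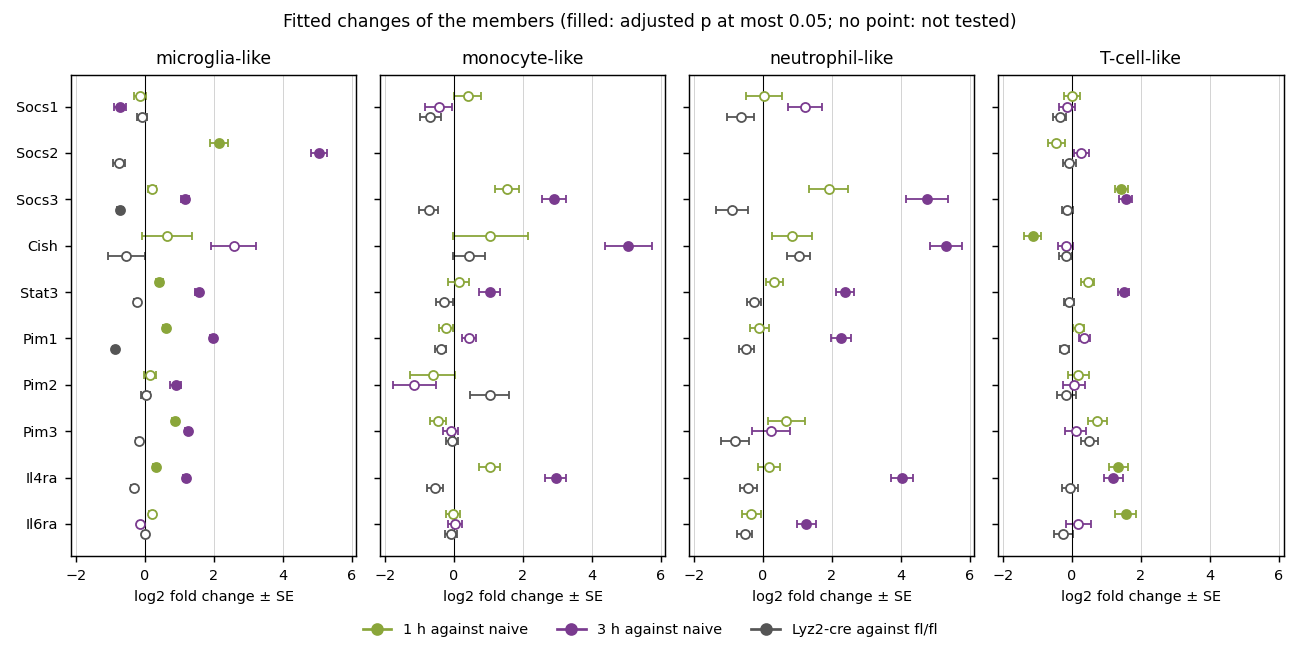
Log2 fold change ± SE (x axis) of each member (y axis) in the 4 tested classes, for 1 h against naive, 3 h against naive and Lyz2-cre against fl/fl; filled points have an adjusted p of at most 0.05 and a missing point was not tested. Socs3, Stat3 and Il4ra have filled 3 h points in all 4 classes, and Lyz2-cre against fl/fl has filled points for Socs3 and Pim1 in microglia-like cells only.

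The genotypes were compared over 3 libraries each, with time in the model. In microglia-like cells 2 members were called lower in Lyz2-cre and 0 higher, beside 0.364% and 0.0465% of all genes. Pim1 was lower in the Lyz2-cre library at each of the 3 times, with a log2 fold change of -0.86 ± 0.068, adjusted p = 0.00159. Socs3 was likewise lower in 3 of 3 pairs (-0.71 ± 0.096, adjusted p = 0.0235). The Socs3 call was lost without either naive library (-0.77, adjusted p = 0.105 without fl/fl and -0.77, adjusted p = 0.105 without Lyz2-cre) and with library totals only (-0.66, adjusted p = 0.071). With no term for time neither gene was called (-0.86, adjusted p = 1 for Pim1 and -0.67, adjusted p = 1 for Socs3). DESeq2 called 4 members, adding Socs2 (-0.78, adjusted p = 0.0137) and Il4ra (-0.33, adjusted p = 0.0374). Over all genes, 53 were called between genotypes in the main fit and 1 to 205 in the other settings that kept all libraries. By edgeR Socs2 was called lower without fl/fl 3 h (-1.11, adjusted p = 9.12e-06) or Lyz2-cre 3 h (-1.11, adjusted p = 2.06e-06). Within clusters, Socs3 in naive mice was 630.2 and 443 CPM in cluster 3 and 662 and 448 CPM in cluster 4, so the order of the genotypes was the same in both. At 1 h it was 813 and 582 CPM in cluster 5 but 138 and 195 CPM in cluster 0, where the order was the opposite. Cluster 16 held 323 cells of the fl/fl and 39 of the Lyz2-cre library at that time. Each genotype at each time is a pool of 3 brains, so differences between pools and between genotypes cannot be told apart within a time.

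In monocyte-like, neutrophil-like and T-cell-like cells edgeR called 0 members between genotypes, and DESeq2 also called 0 in each. At an unadjusted p under 0.05 there were 3, 2 and 0 members. All genes called higher and lower in Lyz2-cre made up 0% and 0% in monocyte-like, 0% and 0.0239% in neutrophil-like and 0.0268% and 0.0268% in T-cell-like cells. In neutrophil-like cells the count was 3 without fl/fl 3 h and 3 without Lyz2-cre 3 h, where Socs3 was -1.53, adjusted p = 6.54e-06 and -1.55, adjusted p = 2.64e-06, with Socs1 and Il6ra the others. Calls over all genes grew as well, from 2 in the main fit to between 3 and 634 when any 1 library was left out. Socs3 differed most between the genotypes at 1 h in neutrophil-like, monocyte-like and B-cell-like cells. Its 1 h levels, fl/fl first, were 642 and 105 CPM in neutrophil-like cells, 582 and 196 CPM in monocyte-like cells, and 186 and 49.8 CPM in B-cell-like cells, which are not myeloid. The secondary-granule cluster 7 held 49 of the 329 fl/fl and 485 of the 1045 Lyz2-cre neutrophil-like cells at 1 h, and within cluster 8 Socs3 was 898 and 352 CPM, a smaller gap. Stat3 in natural-killer-cell-like cells was 425 and 134 CPM at 1 h. A difference of the time course between genotypes could not be tested, since a model with that term has no residual degrees of freedom.

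The order of the classes differed from gene to gene. Il6ra was highest in microglia-like cells, at 333 to 448 CPM (median 414) over the 6 libraries, a range that did not overlap with any other class; monocyte-like cells followed with 202 to 296 CPM (median 235), and natural-killer-cell-like cells had 0 to 9.04 CPM (median 1.03). Cish, Socs1 and Socs2 had their highest medians in T-cell-like cells. Socs1 was 105 to 238 CPM (median 182) in T-cell-like and 78.6 to 193 CPM (median 120.04) in natural-killer-cell-like cells, which overlapped, and all other classes were under 100 CPM. Cish was 36 to 163 CPM (median 123) in T-cell-like cells, but ranges overlapped widely, with 8.37 to 158 CPM (median 44.9) in conventional-dendritic-cell-like cells. Pim2 was highest in natural-killer-cell-like cells, at 26.3 to 47.1 CPM (median 38.5), and T-cell-like cells, at 23.5 to 29.2 CPM (median 27.1), 2 ranges that overlapped. It was lowest in neutrophil-like cells, at 0 to 2.78 CPM (median 0.522). Pim1 had its highest median in conventional-dendritic-cell-like cells, at 692 to 908 CPM (median 835), above every monocyte-like library, at 344 to 684 CPM (median 613), though the 3 h neutrophil-like libraries reached as high. It was lowest in microglia-like cells, at 17.4 to 115 CPM (median 38). Pim3 in neutrophil-like cells, at 2.95 to 8.7 CPM (median 6.33), lay under the range of the other 7 classes, most of which overlapped. Socs3 ranged over 397 to 1279 CPM (median 715) in microglia-like, 64.9 to 1941 CPM (median 374) in neutrophil-like and 125 to 1114 CPM (median 792) in border-associated-macrophage-like cells, so their order is not separated from the spread. Stat3 ranged over 108 to 563 CPM (median 168) in neutrophil-like and 53.5 to 295 CPM (median 90.7) in B-cell-like cells, and Il4ra over 143 to 443 CPM (median 283) in border-associated-macrophage-like and 22.3 to 48.3 CPM (median 30.9) in natural-killer-cell-like cells.

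**Figure D5:**
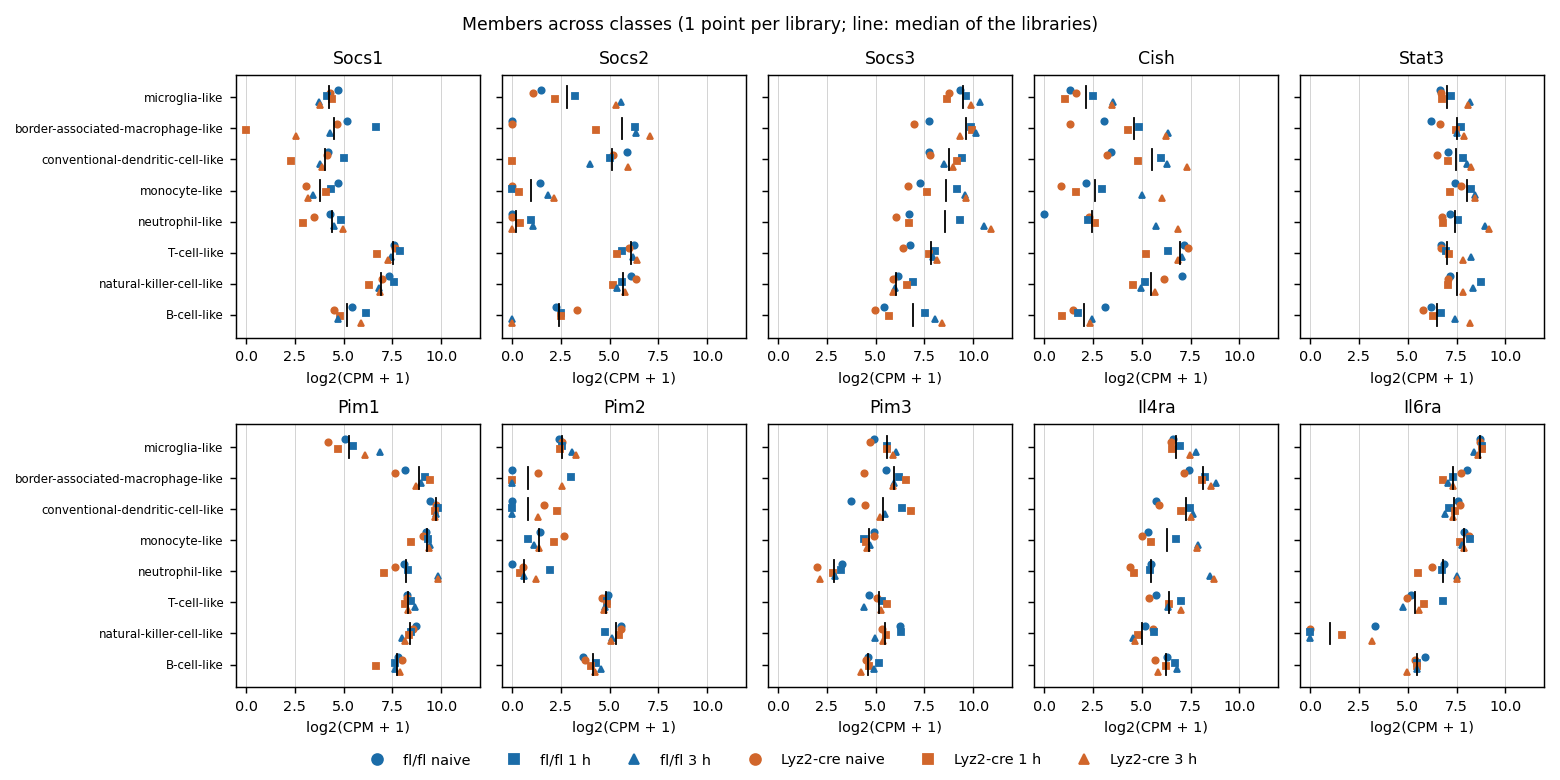
Level of each of the 10 members as log2(CPM + 1) (x axis) in 8 classes (y axis), 1 point per library, coloured by genotype and shaped by time, with a line at the median of the libraries. Il6ra in microglia-like cells, 333 to 448 CPM, lies apart from the other classes, while Socs3 spreads widely within most of them.

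The other classes were not tested, and all but the B-cell-like class fell under 50 cells in some library. Border-associated-macrophage-like cells (26 to 113 per library) had Socs3 at 209 and 125 CPM (naive), 941 and 965 CPM (1 h) and 1114 and 642 CPM (3 h) and Cish at 7.45 and 1.54 CPM (naive), 28.5 and 18.4 CPM (1 h) and 79.6 and 73.5 CPM (3 h); all libraries after reperfusion were above both naive ones for each gene. Socs2 in them had 0 UMIs in both naive libraries, where 3 UMIs would be 7.45 and 4.62 CPM, and was at 79.6 and 132 CPM at 3 h. In conventional-dendritic-cell-like cells (27 to 63) Socs3 was highest at 1 h, with 208 and 219.7 CPM (naive), 684 and 579 CPM (1 h) and 358 and 492 CPM (3 h). B-cell-like cells (61 to 310) had Socs3 at 42.1 and 30.3 CPM (naive), 186 and 49.8 CPM (1 h) and 261 and 331 CPM (3 h) and Stat3 at 72.8 and 53.5 CPM (naive), 105 and 76.5 CPM (1 h) and 170.3 and 295 CPM (3 h). Natural-killer-cell-like cells (48 to 129) differed from these in Socs3, which stayed between 58.2 and 118 CPM, and in Cish, which was 132 and 69.4 CPM (naive), 35.1 and 22.8 CPM (1 h) and 29.8 and 50.8 CPM (3 h), with naive libraries the highest.

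Genes whose levels followed a member were ranked by Pearson's correlation of log2(CPM + 1) over 37 sums of class and library with at least 50 cells, among 9411 genes; the sums share libraries and classes, so the values are descriptions. Socs3 was most like Nfkbia (0.874), an inhibitor of NF-kB, then Cd53 (0.863) and Slc2a1 (0.841), a glucose transporter gene. Pim1 was most like Diaph1 (0.938), Tpm4 (0.9) and Slfn2 (0.899). Stat3 was most like Gm42418 (0.832), Ubxn4 (0.826) and Pak2 (0.815).

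The rest of the pathway was read from 12 gene lists. Unlike the members, these genes were not refitted outside any cluster, so the part of changes in class make-up in their calls was not tested. Among upstream ligands of the interleukin-6 and interleukin-10 families, 5 of 9 were tested in microglia-like cells, and 3 were called higher and 1 lower at 3 h. Osm, encoding oncostatin M, was called higher at 3 h in microglia-like (2.67 ± 0.10, adjusted p = 2.08e-07), monocyte-like (2.32 ± 0.21, adjusted p = 0.00017) and neutrophil-like cells (1.90 ± 0.24, adjusted p = 0.000472); microglial levels of Osm were 52.9 and 33.6 CPM (naive), 112 and 86.9 CPM (1 h) and 283 and 227 CPM (3 h). Il6 in microglia-like cells was at 16.4 and 10.7 CPM (naive), 13.8 and 9.19 CPM (1 h) and 26.1 and 24.7 CPM (3 h) (1.03 ± 0.13, adjusted p = 0.000297). Of the ligands, 2 of 4 rose in monocyte-like, 1 of 2 in neutrophil-like and 0 of 2 in T-cell-like cells, with 0 lower. Of the receptors of these families, 6 were tested there, with 1 called higher and 2 lower at 3 h. Il6st, the signalling chain that partners IL6RA, fell in microglia-like cells (-0.27 ± 0.075, adjusted p = 0.0138) and rose in monocyte-like cells (1.00 ± 0.23, adjusted p = 0.0146), where 2 of 5 receptors rose and 0 fell. In neutrophil-like cells 2 of 5 receptors rose and 0 fell, Il10ra (2.23 ± 0.40, adjusted p = 0.00356) and Il10rb (2.19 ± 0.25, adjusted p = 0.000302). T-cell-like cells had Il10rb lower (-1.38 ± 0.22, adjusted p = 0.000609) among 1 higher and 1 lower of 4.

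Receptors of haematopoietic cytokines were called higher in neutrophil-like cells, 4 of 5 tested and 0 lower. Cluster 7 held 56 of 154 and 164 of 326 cells of this class in naive mice, and 34 of 1077 and 32 of 1014 at 3 h. The part of this shift in the calls was not tested. Csf2rb, the shared chain for GM-CSF, interleukin-3 and interleukin-5, was at 100.03 and 109 CPM (naive), 232 and 107 CPM (1 h) and 834 and 1169.6 CPM (3 h) (3.53 ± 0.35, adjusted p = 0.000149), and Csf3r, the G-CSF receptor, rose by 1.54 ± 0.32, adjusted p = 0.00612. Csf3r is also among the markers used to name the neutrophil-like class. Csf2rb also rose in monocyte-like (1.84 ± 0.22, adjusted p = 0.000544) and microglia-like cells (0.74 ± 0.093, adjusted p = 0.000253). Of this list 2 of 5 rose and 0 fell in monocyte-like cells, 2 of 6 rose and 2 fell in microglia-like cells, and the 1 tested in T-cell-like cells was not called. Of the common gamma chain list 3 of 6 tested rose and 0 fell in neutrophil-like cells. Among them Il13ra1, which pairs with IL4RA, was at 40.6 and 18.7 CPM (naive), 66.8 and 21 CPM (1 h) and 248 and 234 CPM (3 h) (3.45 ± 0.34, adjusted p = 0.000145). In monocyte-like cells 3 of 6 rose and 1 fell, Il13ra1 again among them (1.43 ± 0.22, adjusted p = 0.00205), and in microglia-like cells, where 3 of 7 rose and 3 fell, it did not pass (0.22 ± 0.095, adjusted p = 0.0882). T-cell-like cells had 2 of 7 higher and 0 lower, Il7r (1.26 ± 0.22, adjusted p = 0.00439) and Il2ra (1.13 ± 0.28, adjusted p = 0.0181), the receptor chains for interleukin-7 and interleukin-2. Ifng, encoding interferon gamma, was at 150.3 and 108 CPM (naive), 27.8 and 38.6 CPM (1 h) and 49.1 and 40.2 CPM (3 h) in T-cell-like cells and fell (-1.41 ± 0.23, adjusted p = 0.000801). Of the interferon receptors with Ifng, 1 of 4 rose and 1 fell in microglia-like, 2 of 4 rose in neutrophil-like, 0 of 4 in monocyte-like, and 1 of 5 rose and 1 fell in T-cell-like cells.

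Inside the cell, Jak2, the kinase that CSF2RB signals through, rose at 3 h in microglia-like (0.67 ± 0.095, adjusted p = 0.000505), monocyte-like (1.15 ± 0.22, adjusted p = 0.00521) and neutrophil-like cells (2.86 ± 0.34, adjusted p = 0.000368). Of the 4 Janus kinases, 3 rose and 1 fell in microglia-like cells, 1 rose in monocyte-like, 2 in neutrophil-like and 0 in T-cell-like cells. Tyk2 was the microglial exception (-0.54 ± 0.087, adjusted p = 0.000924). Other STAT factors had 3 of 6 higher in microglia-like and 2 of 6 in both neutrophil-like and T-cell-like cells, with 0 lower. Of the remaining SOCS genes, 2 of 4 rose in microglia-like cells, Socs4 (0.82 ± 0.22, adjusted p = 0.0356) and Socs6 (0.57 ± 0.11, adjusted p = 0.00347), 0 of 4 in monocyte-like, 0 of 3 in neutrophil-like and 1 of 3, Socs6, in T-cell-like cells (1.66 ± 0.49, adjusted p = 0.0465).

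Other negative regulators had 7 of 11 higher and 2 lower in microglia-like cells, 2 of 11 higher and 1 lower in monocyte-like cells, and 2 of 10 higher and 0 lower in both neutrophil-like and T-cell-like cells. Ptpn1, a phosphatase that acts on Janus kinases, was called higher at 3 h in all 4 classes, by 1.17 ± 0.086, adjusted p = 1.26e-05 in microglia-like, 1.85 ± 0.25, adjusted p = 0.00173 in monocyte-like, 2.35 ± 0.27, adjusted p = 0.000302 in neutrophil-like and 0.78 ± 0.17, adjusted p = 0.00877 in T-cell-like cells. Pias3, an inhibitor of STAT3, fell in microglia-like (-0.74 ± 0.11, adjusted p = 0.000494) and monocyte-like cells (-1.28 ± 0.32, adjusted p = 0.0198). Cblb, a ubiquitin ligase that restrains T cells, rose in T-cell-like cells (1.41 ± 0.17, adjusted p = 5.76e-05).

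Known STAT3 target genes had 9 of 14 higher and 1 lower in microglia-like cells at 3 h, 9 of 13 higher and 1 lower in neutrophil-like, 8 of 15 higher and 0 lower in monocyte-like, and 5 of 10 higher and 1 lower in T-cell-like cells. Nfil3, a transcription factor gene, was called in all 4, and in neutrophil-like cells it was at 40.6 and 36.9 CPM (naive), 123 and 94.2 CPM (1 h) and 494 and 509.6 CPM (3 h) (3.98 ± 0.26, adjusted p = 4.25e-05). Batf was called in all 4 as well, by 2.92 ± 0.30, adjusted p = 0.00203 in microglia-like and 1.77 ± 0.21, adjusted p = 4.44e-05 in T-cell-like cells. Cebpb, which drives myeloid and emergency granulocyte programmes, was among the 2 of this list called at 1 h in neutrophil-like cells (1.97 ± 0.28, adjusted p = 0.0211), with 771 and 688 CPM (naive), 3728 and 1940.1 CPM (1 h) and 5333 and 4684 CPM (3 h). STAT6 target genes, which answer to interleukin-4 and interleukin-13, had 2 of 6 higher and 0 lower in microglia-like cells, 2 of 5 higher and 2 lower in monocyte-like cells, and 0 of 2 higher and 1 lower in neutrophil-like cells; the 1 tested in T-cell-like cells was not called. In monocyte-like cells Arg1 was among those called higher at 3 h, with 0 UMIs in all 4 naive and 1 h libraries and 37.4 and 7.95 CPM at 3 h. Chil3 fell in neutrophil-like cells (-1.60 ± 0.31, adjusted p = 0.0041) and rose in monocyte-like cells (1.24 ± 0.31, adjusted p = 0.0339). It is also among the markers used to name the monocyte-like class. Its levels there were 500 and 1282 CPM (naive), 1818 and 2387 CPM (1 h) and 1704 and 1622 CPM (3 h).

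PIM substrates had 3 of 9 higher and 3 lower in microglia-like, 1 higher and 1 lower in monocyte-like, 2 higher and 1 lower in neutrophil-like and 3 higher and 0 lower in T-cell-like cells. Cdkn1a, the cell cycle inhibitor p21, was called higher in all 4, by 2.42 ± 0.088, adjusted p = 1.72e-07 in microglia-like and 7.77 ± 0.56, adjusted p = 6.49e-05 in neutrophil-like cells, where it was at 2.9 and 1.97 CPM (naive), 100.3 and 30.9 CPM (1 h) and 376 and 482 CPM (3 h). Cxcr4, a chemokine receptor gene, rose in microglia-like (3.37 ± 0.30, adjusted p = 3.62e-05) and T-cell-like cells (1.26 ± 0.29, adjusted p = 0.0106) and fell in monocyte-like cells (-0.74 ± 0.22, adjusted p = 0.0406). For these lists the counts are at 3 h against naive and are read beside the shares of all genes given above for each class; no list was set against others. Between the genotypes, 4 genes of these lists were called in microglia-like cells, Osm (-0.50 ± 0.078, adjusted p = 0.0353), Mcl1 (-0.43 ± 0.071, adjusted p = 0.0418), Cdkn1a (-0.50 ± 0.069, adjusted p = 0.0217) and Mrc1 (0.49 ± 0.083, adjusted p = 0.042), the last of them higher in Lyz2-cre.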

How the data were processed

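Raw UMI counts per gene and cell were deposited by the authors as 1 filtered matrix per library, made with Cell Ranger 3.0.2 on mm10, per the submitters' processing notes; the libraries came from 10x 3′ reagents. Libraries held 7156 to 10642 barcodes, with median UMIs per cell of 3985 to 5256, and the pool of 3 brains behind each library was the unit of comparison. The members and lists were chosen with earlier results of these data known.

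Kept cells had 300 or more genes, and mitochondrial UMIs made up 10% or less. In each library the cells with the highest Scrublet doublet scores were removed, 0.8% per 1000 barcodes (410 to 906 per library, 3557 in all), since its automatic threshold called only 0 to 419. Counts were scaled to 10000 per cell, and 2000 variable genes, 30 principal components and 15 neighbours gave Leiden clusters at resolution 1 (scanpy 1.11.5). Clusters were named from fixed markers. UMIs were then summed per class and library and tested with edgeR 4.0.16 (quasi-likelihood test, TMM scaling, filterByExpr, robust, terms for genotype and time), with Benjamini-Hochberg adjustment over all genes tested and calls at an adjusted p of at most 0.05. A model of 6 libraries leaves 2 residual degrees of freedom, so spread is borrowed across genes. No genotype and time has a second pool, so libraries of the other genotype or times stand in for replicates. The p-values thus rest on departures from additive genotype and time effects, which are mixed with differences between pools. Spread between pools of the same genotype and time was not measured. DESeq2 1.42.0, scaling by library totals, no low-count filter, no covariate, stricter cell filters, no doublet removal, cells without markers of other classes, and leaving out each library were alternatives; leaving out neutrophil cluster 7, monocyte cluster 14 or the T-cell-like Lef1 cluster was added after the clusters were seen. Intervals are exact Poisson or Clopper-Pearson at 95% and cover counting error only. Scripts were tested on simulated data.

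Named were all 10 members, with library values for those called or among the 5 highest in a class. From each list the 3 called genes with the largest fold change per class and comparison were drawn up, and a choice of genes is given. Others that met this rule are not printed, such as Timp1 in monocyte-like and Bcl2l1 in neutrophil-like cells at 3 h. Il13ra1 in microglia-like cells is named for comparison, chosen after its value was seen.

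One result of the list of other STAT factors is not reported here.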

Additional observations from a re-analysis of the deposited data

Results flagged for a closer look

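In 5 comparisons the fl/fl and Lyz2-cre libraries moved in opposite directions between 2 times, and in each genotype the 95% Poisson intervals of the 2 levels did not overlap. Levels in other comparisons also moved in opposite directions, with overlapping intervals in at least 1 genotype, and are left out. Each direction is 1 library against 1 library, and the difference was not tested. Socs3 in microglia-like cells went from 636 to 794 CPM in fl/fl and from 435 to 397 CPM in Lyz2-cre between naive and 1 h, log2 ratios of 0.32 and -0.13 and a difference (Lyz2-cre minus fl/fl) of -0.45. Cish in the same cells and times went from 1.55 to 4.67 CPM and from 2.12 to 1.1 CPM, a difference of -2.53. Stat3 in monocyte-like cells went from 173 to 302 CPM and from 213 to 141 CPM between naive and 1 h, a difference of -1.41. Il6ra in monocyte-like cells went from 233 to 296 CPM and from 279 to 202 CPM over the same times, a difference of -0.81. From 1 h to 3 h Il6ra in these cells went the other way round, from 296 to 217 CPM and from 202 to 237 CPM, a difference of 0.68; this shares its 1 h libraries with the preceding comparison.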

How the results depend on the processing

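No paired analysis was possible because every combination of genotype and time holds 1 library, and the replicate number is the same in each. Counts of members called depended on the settings as follows. In microglia-like cells at 1 h the count was 5, 1 with no covariate, and 2 to 6 leaving out a library; between genotypes it was 2, 4 by DESeq2, 1 with library totals only, 0 with no covariate, and 1 to 3 leaving out a library. In monocyte-like cells at 1 h it was 0, 1 by DESeq2, with no filter on low counts or in cells without other classes' markers, and 0 to 3 leaving out a library; from 1 h to 3 h it was 4, 2 with no covariate or without those markers, and 2 to 5 leaving out a library. In neutrophil-like cells at 1 h it was 0, 1 by DESeq2, with no filter, without other markers or outside cluster 7, and 0 to 1 leaving out a library; between genotypes it was 0, and 0 to 3 leaving out a library. In T-cell-like cells at 1 h it was 4, 2 with the stricter cell filter or outside the Lef1 cluster, and 2 to 4 leaving out a library; from 1 h to 3 h it was 3, 1 by DESeq2, with the stricter filter or outside the Lef1 cluster, and 0 to 3 leaving out a library. Il6ra at 1 h in T-cell-like cells reversed outside the Lef1 cluster, to -0.42. Of the members' other log2 fold changes under alternatives, 1830 kept their side of the threshold, 80 lost and 55 gained a call. The 1830 include any that changed direction while called in neither fit. Beyond what is stated above, the cause was not tested.

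Counts over all genes moved further. Across the other settings, 3 h against naive ranged from 4316 to 6319 in microglia-like (6130), 1239 to 2392 in monocyte-like (2081), 914 to 2546 in neutrophil-like (2297) and 172 to 828 in T-cell-like cells (630), and leaving out a library from 2681 to 5979, 725 to 3117, 480 to 2786 and 189 to 1002. At 1 h the same settings gave 2200 to 3712 (3445), 16 to 209 (24), 2 to 177 (25) and 124 to 559 (381). Between genotypes they gave 1 to 205 (53), 0 to 65 (0), 0 to 139 (2) and 0 to 42 (4). Leaving out a library gave 21 to 193, 1 to 29, 3 to 634 and 12 to 47 between genotypes. T-cell-like cells without other classes' markers were not run (10 cells in a library). Shares of cells with a UMI depended on depth: of the member shares thinned to 1000 UMIs, 12 stayed within and 228 left the interval of the unthinned share.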
